A study of Rattus norvegicus with 18 samples.

Results

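Oxidative phosphorylation is carried out by 5 protein complexes of the inner mitochondrial membrane. The genes described here are those whose symbol in the array annotation starts with Nduf, Sdha to Sdhd, Uqcr, Cox4 to Cox8 or Atp5, with Cyc1 added, and each gene is represented by its brightest probe over the 18 arrays. The prefixes selected 71 of the 13337 genes with a named probe, each with 1 probe. Of these, 61 code for subunits, with 29 genes of complex I, 4 of complex II, 4 of complex III, 11 of complex IV and 13 of complex V. The other 10 are the assembly factors Ndufaf1 to Ndufaf7, Sdhaf2 and Sdhaf3 and the pseudogene Ndufs6-ps1, and Cyc1 was not analysed here.

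RNA from whole liver of 18 Wistar rat pups was hybridized to RatRef-12 bead arrays (Illumina), and each group held 3 males (replicates 1 to 3) and 3 females (replicates 4 to 6), each on an array of its own. G1 pups were born to dams given vehicle (ethanol, Cremophor EL and sterile water), G2 pups to dams given 0.002 mg/kg of the flame retardant congener BDE-47 in that vehicle, and G3 pups to dams given 0.2 mg/kg. The 3 dams of each group received 6 tail-vein injections, 1 every 5 days from gestational day 15 to postnatal day 20, so the pups were exposed through the dam before birth and through her milk, and they were sacrificed on postnatal day 27 after weaning on day 21. A male and a female came from each litter, which the labels do not identify. The p-values below measure the spread between these pups and are too small wherever littermates resemble each other.

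Complex I accepts electrons from NADH and complex II from succinate, and both pass them to ubiquinone. Complex III hands the electrons on to cytochrome c, complex IV transfers them to oxygen, and complex V uses the resulting proton gradient to make ATP. Liver relies on this chain to oxidize fatty acids and amino acids and to power glucose and urea synthesis, and the nuclear factors NRF-1, GABP and YY1 are known to bind upstream of many of its genes.

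Start-site regions were available from RefSeq (build GRCr8) for 62 of the 71 genes, and 6 are shown because the results below turn on these genes or on the isoforms they code for. Each sequence runs 5′ to 3′ on the coding strand from 250 bases before to 50 bases after the annotated start. Capitals mark the letters GCATGCGC (NRF-1 core), CCGGAAG (ETS core, bound by GABP) and AAGATGGCG (YY1 core) or their reverse complements. The regions are chr9:1637364-1637663 (plus strand) for Ndufa11, chr1:30764303-30764602 (plus) for Sdha, chr5:158547684-158547983 (plus) for Sdhb, chr1:213833574-213833873 (minus) for Cox8a, chr1:205408224-205408523 (minus) for Cox8b and chr7:1099808-1100107 (plus) for Atp5f1b.
Ndufa11: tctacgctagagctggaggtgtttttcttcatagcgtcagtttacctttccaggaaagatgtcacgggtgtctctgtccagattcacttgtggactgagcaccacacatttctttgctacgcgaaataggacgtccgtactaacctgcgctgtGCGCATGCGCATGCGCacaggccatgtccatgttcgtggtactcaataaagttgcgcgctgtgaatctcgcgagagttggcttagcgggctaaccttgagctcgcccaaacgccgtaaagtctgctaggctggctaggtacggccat
Sdha: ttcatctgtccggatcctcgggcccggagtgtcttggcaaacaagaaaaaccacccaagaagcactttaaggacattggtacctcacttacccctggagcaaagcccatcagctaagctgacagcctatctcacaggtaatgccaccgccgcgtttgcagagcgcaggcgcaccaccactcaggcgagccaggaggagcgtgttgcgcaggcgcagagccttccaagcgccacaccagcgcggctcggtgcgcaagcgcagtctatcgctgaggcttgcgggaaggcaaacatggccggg
Sdhb: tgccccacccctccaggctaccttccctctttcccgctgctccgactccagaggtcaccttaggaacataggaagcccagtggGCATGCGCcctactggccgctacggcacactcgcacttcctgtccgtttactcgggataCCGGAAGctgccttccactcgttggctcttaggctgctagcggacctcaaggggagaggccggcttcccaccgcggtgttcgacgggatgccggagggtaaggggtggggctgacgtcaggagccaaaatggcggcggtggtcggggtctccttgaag
Cox8a: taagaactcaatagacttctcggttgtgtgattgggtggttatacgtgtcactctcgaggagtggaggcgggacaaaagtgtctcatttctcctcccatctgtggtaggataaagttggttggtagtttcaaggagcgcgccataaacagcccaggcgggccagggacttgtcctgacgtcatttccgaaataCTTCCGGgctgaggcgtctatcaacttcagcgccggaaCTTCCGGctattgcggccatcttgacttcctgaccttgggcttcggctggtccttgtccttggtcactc
Cox8b: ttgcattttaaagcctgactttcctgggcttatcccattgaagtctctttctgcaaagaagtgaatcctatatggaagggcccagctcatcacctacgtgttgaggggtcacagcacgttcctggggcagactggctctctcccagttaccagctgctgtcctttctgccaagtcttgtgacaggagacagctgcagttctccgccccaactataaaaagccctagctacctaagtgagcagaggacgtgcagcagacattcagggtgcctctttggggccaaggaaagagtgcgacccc
Atp5f1b: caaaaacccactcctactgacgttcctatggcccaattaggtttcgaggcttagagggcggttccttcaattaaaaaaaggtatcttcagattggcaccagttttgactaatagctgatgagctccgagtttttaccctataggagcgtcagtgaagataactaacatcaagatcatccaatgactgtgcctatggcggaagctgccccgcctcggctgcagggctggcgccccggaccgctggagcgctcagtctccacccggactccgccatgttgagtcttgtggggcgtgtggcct

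The NRF-1 core was present in 11 of the 62 regions (17.7%), against 2.47% of all 33469 RefSeq start-site regions of the same length and 3.75% of the 11442 that belong to genes on the array. The ETS core was present in 19 (30.6%), against 8.75% of all regions and 12.7% of those of array genes, and the YY1 core in 6 (9.68%), against 1.73% and 2.53%. At least 1 of these motifs was found in 29 regions (46.8%), against 12.1% of all regions and 17.4% of those of array genes. The forward and reverse letters of the NRF-1 core can overlap, and the 4 matches of Ndufa11 form 1 such run. Sdhb held an NRF-1 core and an ETS core, Cox8a held 2 ETS cores, and none of these letters were found in the windows of Sdha, Cox8b and Atp5f1b. The 62 regions had a median of 57.5% G and C and 21 CG pairs, against 51.7% and 7 CG pairs over all regions, while the regions of the muscle isoforms Cox8b and Cox6a2 held 5 CG pairs each. A match describes these letters and is not evidence of binding in these livers.

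Values are log2 intensities as deposited, with a median probe of 7.84. Of the 71 genes, 60 had a mean at least 1 above the median probe and are called bright below. The 11 dim genes were Ndufv3, Ndufa7, Ndufb4, Ndufs4, Cox6c, Cox8b, Cox6a2, Cox8c, Atp5mc3, Ndufaf7 and Ndufs6-ps1. For most of these the probe reads near the lower limit of the array, which bounds the level it can show. Ndufa10 and its near copy Ndufa10l1 may share signal and are uncertain.

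Cell type markers and a principal component were used to check the tissue and the pups. Hepatocyte markers had summed log2 levels of 86.4 to 89.4 in G1, 87.7 to 88.9 in G2 and 86.9 to 89.2 in G3 over 6 genes, with none near the lower limit. Erythroid markers summed to 59.2 to 63.3 in G1, 57.4 to 60.2 in G2 and 58.8 to 61.1 in G3 over 6 genes. Their gene Hba-a3 (a hemoglobin alpha chain) was singled out after its values were seen. It had medians of 10.99 in G1, 9.93 in G2 and 10.88 in G3, and was highest in G1 replicates 1 and 2 (11.86 and 12.06). For leukocyte, stellate, endothelial, cholangiocyte, exocrine pancreas and brown fat markers the ranges of the summed levels overlapped between the groups. Skeletal muscle markers were near that limit in most pups, with sums over 11 genes of 86.3 to 86.9 in G1 and 86.3 to 86.6 in G2. G3 replicate 2 reached 115.9, with 8 of the 11 at least 1 above every other pup, and G3 replicate 4 reached 89.0, against at most 86.5 in the other G3 pups. G1 replicate 6 lay at −6.11 on the first principal component of all probes, within the G3 range of −12.8 to −4.37, while the other G1 pups lay between 2.87 and 26.4. In 47 of the 71 genes its value was closer to the G3 mean than to the mean of the other G1 pups. The share over all probes is not given here, so the 47 cannot be read as particular to this set.

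No gene of the set passed an adjusted p of 0.05 from limma in any comparison, with or without a 2-fold limit. In G3 against G1 the smallest adjusted p among the 71 was 0.0631 (Ndufa11), and over all 22523 probes 0.0799% passed the adjusted p and 0.00444% passed it with a 2-fold change. In G2 against G1 the smallest was 0.444 (Atp5mg), with 0.0133% and 0.00888% of all probes past the same limits. In G3 against G2 it was 0.220 (Ndufaf3), with 0.0178% and 0% of all probes. An F-test over the 3 groups passed 0.186% of probes and none of the 71 genes, and Sdha had the smallest adjusted p (0.0990 from limma).

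At an unadjusted p of 0.05, 10 of the 71 genes were higher and 14 lower in G3 than in G1, 33.8% in all, against 8.59% higher and 9.98% lower over all probes. Bright probes passed more often than dim ones, so the 60 bright genes are set against bright probes. Among them 9 were higher and 12 lower (35.0%), against 16.5% higher and 18.2% lower of the 4352 bright probes. The set therefore differed from vehicle about as often as other bright probes did. In G2 against G1, 3 genes were higher and 11 lower, against 4.4% and 5.59% of all probes. Of the bright genes 3 were higher and 10 lower in G2, or 5% and 16.7%, against 8.64% and 10.6% of bright probes. In G3 against G2, 6 were higher and 3 lower, against 4.18% and 5.29% of all probes, and among bright genes 6 and 2, against 7.03% and 8.07% of bright probes.

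**Figure D1:**
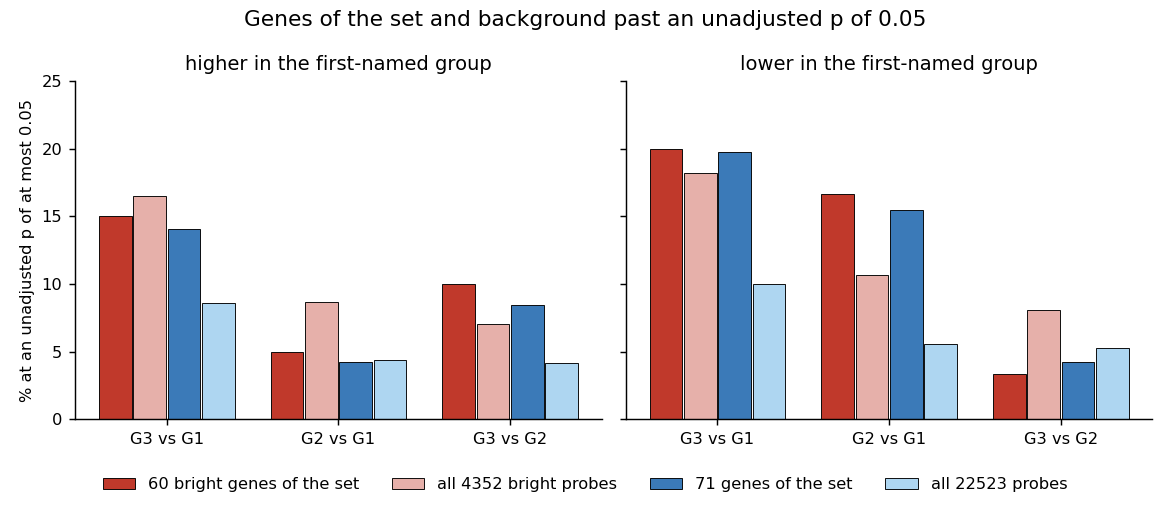
Share of genes or probes at an unadjusted p of at most 0.05 (y axis, %) in each comparison (x axis), split by direction (left panel higher, right panel lower in the first-named group). In G3 against G1 the bars of the 60 bright genes (15% higher, 20% lower) stand beside those of all bright probes (16.5% and 18.2%).

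The size of the differences was small in every complex. The median over the 71 genes was −0.03 in G3 against G1, −0.02 in G2 against G1 and 0.02 in G3 against G2, while the median of all genes was 0.00 in each. The bright genes had a median absolute difference of 0.15 in G3 against G1, equal to that of all bright probes (0.15). By complex, the median in G3 against G1 was −0.00 in complex I, 0.18 in complex II, −0.04 in complex III, 0.03 in complex IV and −0.09 in complex V. In G2 against G1 these medians were −0.04, 0.15, −0.05, −0.00 and −0.19 in the same order. All 4 genes of complex II had a positive difference in G3 against G1, and 11 of the 13 genes of complex V a negative one. Of bright probes 53.3% had a negative difference. In complex II, 2 of the 4 were higher at an unadjusted p of 0.05 from limma, against 16.5% of bright probes. Both complexes are described below gene by gene.

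**Figure D2:**
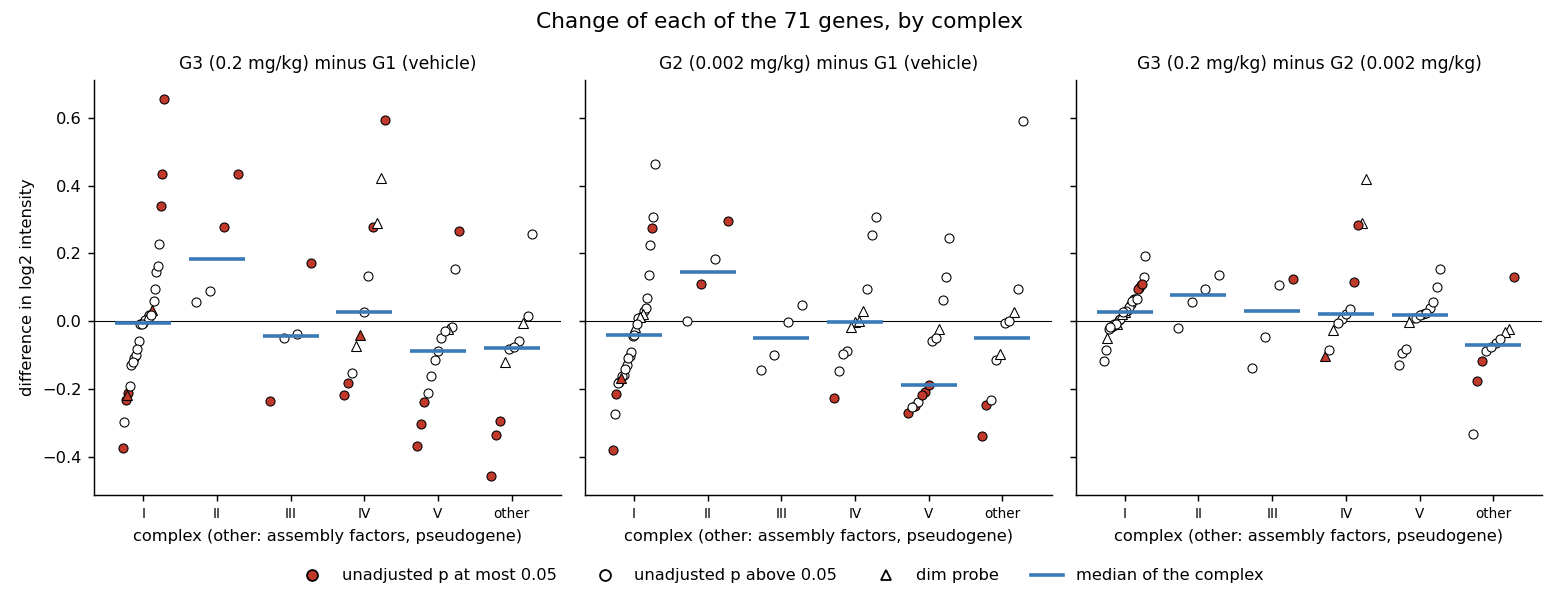
Difference in log2 intensity (y axis) of each of the 71 genes, grouped by complex (x axis), for the 3 comparisons; red points had an unadjusted p of at most 0.05, triangles are dim probes and blue bars are medians. In the left panel complex II has its median at 0.18 and complex V at −0.09, and no point reaches a 2-fold change.

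Succinate dehydrogenase, complex II, links the citric acid cycle to the respiratory chain. Sdha (probe ILMN_1357678) codes for the flavoprotein that oxidizes succinate. Its lowest, median and highest log2 intensities were 11.08, 11.55 and 11.60 in G1, 11.56, 11.63 and 11.93 in G2, and 11.80, 11.84 and 11.96 in G3. Every G3 pup lay above every G1 pup, which held for 1.95% of all probes in one direction or the other and for no other gene of the set. The difference in G3 against G1 was 0.43 (standard error 0.10, 1.35-fold) with an adjusted p of 0.0713 from limma. The exact two-sided permutation p was 0.00216, the smallest that 6 pups against 6 can give. Any gene without overlap has this value, so it adds nothing to the separation. In G2 against G1 the difference was 0.30 (standard error 0.12, adjusted p = 0.486 from limma) with overlapping groups. Males 1 and 2 of G1 had the lowest values, 11.13 and 11.08, and the other 4 G1 pups lay between 11.50 and 11.60. The same 2 pups had the highest levels of Hba-a3, 1 of 6 erythroid markers, and of the dim Alas2 and Slc4a1. For Ahsp and Hbb only male 2 was highest (10.95 and 15.54). Male 1 read 9.94 and 15.34, below 10.31 in G3 replicate 3 and 15.36 in G3 replicate 6. Hba-a2 stayed near the lower limit. These 2 pups were also lowest for the hepatocyte marker Cps1 (11.95 and 12.13), described below. The part of erythroid RNA or of Cps1 in the Sdha difference was not tested.

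Sdhb, the iron-sulfur subunit that receives electrons from Sdha, had lowest, median and highest levels of 12.19, 12.55 and 12.78 in G1, 12.52, 12.73 and 12.95 in G2, and 12.69, 12.80 and 12.94 in G3. The groups overlapped, and the difference in G3 against G1 was 0.28 (standard error 0.09, adjusted p = 0.133 from limma). Sdhc and Sdhd, the membrane anchors, differed less, by 0.09 and 0.06 in G3 against G1. The median of the 4 genes, each centred on its mean over the 18 pups, was taken in each pup. It averaged −0.12 ± 0.11 in G1, 0.01 ± 0.11 in G2 and 0.08 ± 0.08 in G3 (SD, n = 6). Within G1 it was lowest in replicates 1 and 2 (−0.211 and −0.277), against −0.115 to 0.004 in the other G1 pups. In bulk liver a change in RNA per cell and a change in the share of cells that carry it cannot be told apart.

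**Figure D3:**
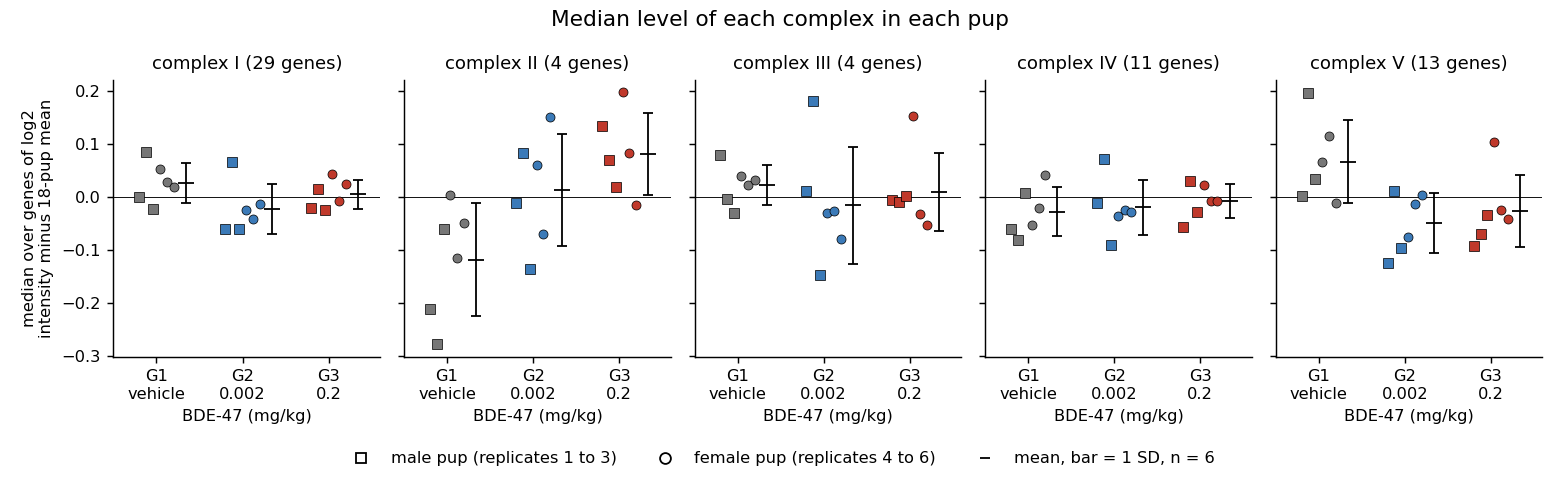
Median over the genes of each complex of the log2 intensity minus the gene's mean over 18 pups (y axis), for each pup by group and dose of BDE-47 (x axis), with group mean and SD. In complex II the G1 pups spread from −0.28 to 0.00 and the G3 pups from −0.02 to 0.20, and the groups overlap in every complex.

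Complex I genes differed in both directions, with 4 higher and 4 lower of 29 at an unadjusted p of 0.05 in G3 against G1. Among its bright genes 12% were higher and 12% lower, below the 16.5% and 18.2% of bright probes. Ndufa11 (probe ILMN_1351305), an accessory subunit of the membrane arm, had lowest, median and highest levels of 13.45, 13.58 and 13.69 in G1, 13.23, 13.47 and 13.62 in G2, and 13.29, 13.38 and 13.45 in G3. G3 and G1 pups met only at 13.45. The difference in G3 against G1 was −0.21 (standard error 0.04), with an adjusted p of 0.0631 from limma. Ndufv1, the flavoprotein that binds NADH, reached at most 11.34 in G3, while 5 of the 6 G1 pups lay at 11.37 or above and G1 replicate 6 at 11.25. Its difference was −0.23 in G3 against G1 and −0.21 in G2 against G1 (adjusted p = 0.130 and 0.485 from limma), and −0.28 in G3 against G1 without G1 replicate 6. Ndufs3, a core subunit of the peripheral arm, had differences of −0.37 and −0.38 in the same comparisons (adjusted p = 0.173 and 0.485 from limma). Ndufs1, the large iron-sulfur subunit, differed by 0.16 in G3 against G1 (adjusted p = 0.330 from limma), and the dim Ndufv3, an accessory subunit beside Ndufv1, by −0.22 (adjusted p = 0.0645 from limma).

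The largest differences in the set came from genes whose levels were spread widely among G1 pups. Ndufb8, an accessory subunit of complex I singled out after its values were seen, ranged from 10.03 to 11.77 in G1 (SD 0.65), 10.81 to 11.39 in G2 and 11.00 to 11.71 in G3. Its difference in G3 against G1 was 0.66 (standard error 0.27, adjusted p = 0.215 from limma). Leaving out G1 replicate 6 gave 0.88. Cox7a2l, which is known to help join complexes III and IV into supercomplexes, ranged from 9.86 to 11.16 in G1 (SD 0.49), 10.52 to 10.92 in G2 and 10.75 to 11.17 in G3. Its difference was 0.59 in G3 against G1 and 0.29 in G3 against G2 (adjusted p = 0.147 and 0.369 from limma), and 0.74 in G3 against G1 without G1 replicate 6. In both genes G1 replicates 1, 2 and 5 were the 3 lowest of the 18 pups and G1 replicate 6 was the highest or nearly the highest. Cps1, a urea cycle enzyme of the mitochondrion, is 1 of 6 hepatocyte markers measured and was singled out after its values were seen. It was also lowest in G1 replicates 1, 2 and 5 (11.95, 12.13 and 12.36). It stood at 14.06 in G1 replicate 6, against 12.97 to 14.20 in the G3 pups. Of the other markers, Tat and Ttr were lowest in G3 replicates 2 and 6 (12.29 and 15.12). Alb and Serpina1 were lowest in G1 pups but, like Cyp2e1, varied little (15.44 to 15.70, 15.19 to 15.54 and 15.30 to 15.64). The part of Cps1 in these differences was not tested.

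Among the 4 genes of complex III, Uqcrh, the hinge protein between cytochrome c1 and cytochrome c, ranged from 13.77 to 14.08 in G1, 13.84 to 14.19 in G2 and 14.04 to 14.22 in G3. G1 replicate 6 alone of the G1 pups reached the G3 range, and the difference in G3 against G1 was 0.17 (standard error 0.05, adjusted p = 0.109 from limma) with that pup and 0.20 without it. Uqcrc1, a core protein of the complex, differed by −0.24 (adjusted p = 0.160 from limma), with 5 G3 pups at 11.53 to 11.70 and G3 replicate 4 at 12.02, against 11.80 to 12.11 in G1. The Rieske protein Uqcrfs1 and the ubiquinone-binding Uqcrb differed by −0.04 and −0.05.

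In complex IV the nuclear subunits that surround the catalytic core differed in opposite directions. Cox4i1 differed by −0.22 in G3 against G1 and by −0.23 in G2 against G1 (adjusted p = 0.164 and 0.485 from limma), with levels of 13.55 to 13.83 in G3 and 13.55 to 13.88 in G2, against 13.68 to 14.13 in G1. Cox5a differed by 0.28 and Cox5b by −0.15 in G3 against G1 (adjusted p = 0.193 and 0.321 from limma). All 3 overlapped between the groups.

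Cox8b and Cox6a2 are isoforms found in heart and skeletal muscle, where they take the place of Cox8a and Cox6a1. In G3 replicate 2, Cox8b read 10.14 and Cox6a2 9.47, against at most 7.90 and 7.85 in the other 17 pups. The same pup read 13.7 for Acta1 (skeletal actin) and 12.8 for Ckm (muscle creatine kinase), against medians of 7.74 and 7.72 in the other 17. G3 replicate 4 was second for all 4 genes, at 8.91 for Acta1, 8.38 for Ckm, 7.90 for Cox8b and 7.85 for Cox6a2. The part of muscle transcripts in the levels of the other genes of this pup was not tested. The differences in G3 against G1 were 0.42 for Cox8b and 0.29 for Cox6a2 with all pups, and 0.04 and 0.00 without G3 replicate 2. Cox8c, a testis isoform, stayed between 7.76 and 7.90 in all pups. Cox8a, singled out after its values were seen as the counterpart of Cox8b, ranged from 12.95 to 13.33 in G3, against 13.08 to 13.44 in G1 (adjusted p = 0.201 from limma).

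**Figure D4:**
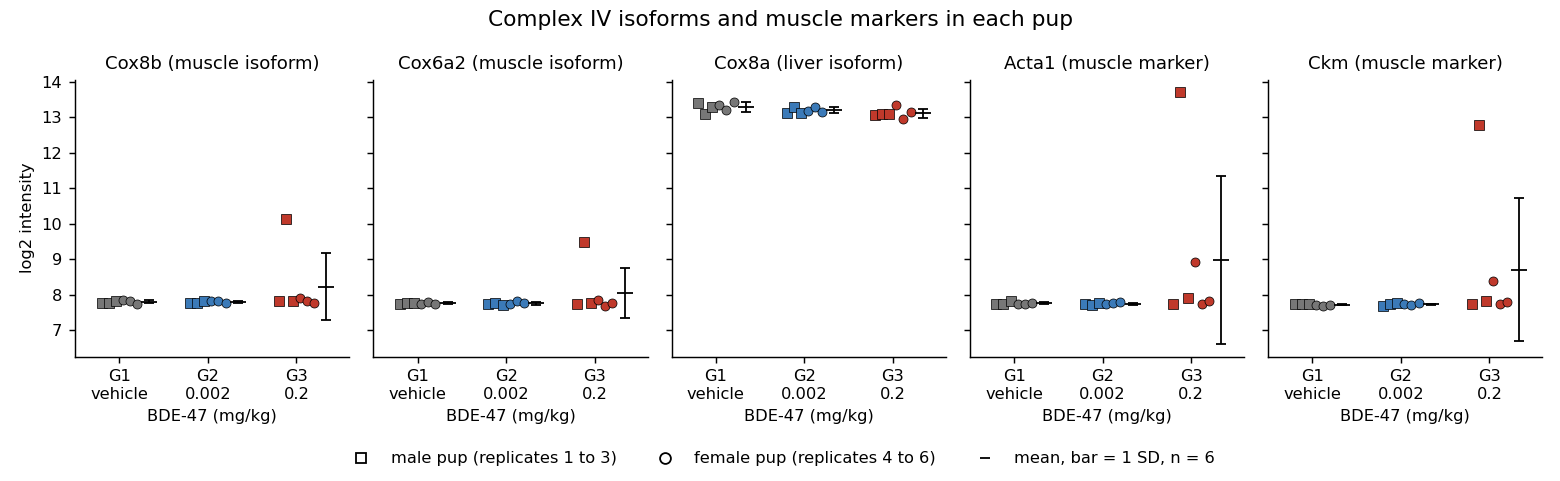
Log2 intensity (y axis) in each pup by group and dose of BDE-47 (x axis) of the muscle isoforms Cox8b and Cox6a2, the isoform Cox8a used in liver, and the muscle markers Acta1 and Ckm, with group mean and SD. G3 replicate 2, a male, stands at 10.14 for Cox8b and 9.47 for Cox6a2, where all other pups lie near 7.8.

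Of the 13 ATP synthase genes of complex V, 1 was higher and 3 were lower in G3 than in G1 at an unadjusted p of 0.05, and 5 were lower and none higher in G2 than in G1. Of its bright genes 25% were lower in G3 and 41.7% in G2, against 18.2% and 10.6% of bright probes. The difference was negative for 11 of the 13 in G3 against G1 and for 10 of 13 in G2 against G1. It was negative for 53.3% and 52.8% of bright probes, and both comparisons use the same 6 G1 pups. Of these, G1 replicate 2 had the highest centred complex V median of all 18 pups (0.195), against −0.011 to 0.115 in the other G1 pups. The part of this pup in the complex V differences is not given here. Atp5f1b (probe ILMN_1350324), the catalytic beta subunit, had lowest, median and highest levels of 14.96, 15.29 and 15.39 in G1, 14.84, 15.06 and 15.22 in G2, and 14.86, 14.94 and 15.16 in G3. G1 replicate 6, at 14.96, was the single G1 pup inside the G3 range, the other 5 lying at 15.26 or above. The difference was −0.30 in G3 against G1 (standard error 0.07) and −0.21 in G2 against G1 (adjusted p = 0.0824 and 0.486 from limma). Atp5f1a, the alpha subunit that alternates with beta in the catalytic ring, differed by −0.05 and −0.06.

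Of the remaining complex V genes, Atp5mk, a small membrane subunit, differed by −0.37 in G3 against G1 (adjusted p = 0.123 from limma). Atp5mg, a subunit of the membrane part, had levels of 12.25 to 12.63 in G2, against 12.47 to 12.95 in G1. Its difference of −0.27 (standard error 0.08) had the smallest adjusted p of the set in that comparison (0.444 from limma), and in G3 against G1 it was −0.11. Atp5po, the stalk protein that confers oligomycin sensitivity, differed by −0.22 and Atp5mc1, a gene of the proton-carrying ring, by −0.25 in G2 against G1 (adjusted p = 0.468 and 0.486 from limma). None of the 71 genes separated G2 from G1 without overlap, as 0.448% of all probes did.

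**Figure D5:**
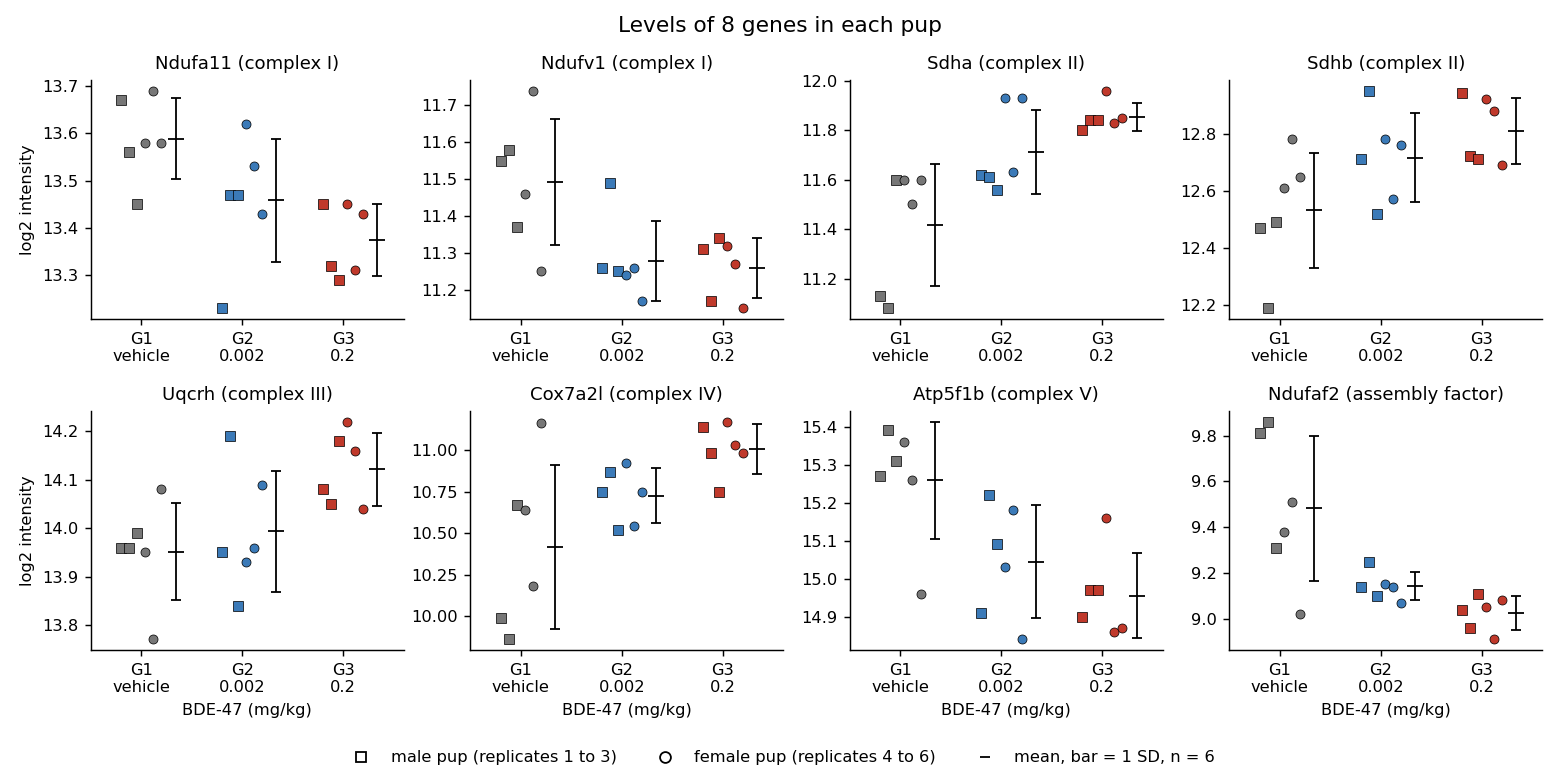
Log2 intensity (y axis, scaled per gene) of 8 genes in each pup by group and dose of BDE-47 (x axis), squares for males and circles for females, with group mean and SD. Only Sdha separates the G3 pups (11.80 to 11.96) from the G1 pups (11.08 to 11.60), and in Atp5f1b and Ndufaf2 G1 replicate 6 lies with the G3 pups.

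Assembly factors build the complexes and are not part of the finished chain. Ndufaf2, which acts late in complex I assembly, had levels of 9.02 to 9.86 in G1, 9.07 to 9.26 in G2 and 8.91 to 9.12 in G3. G1 replicate 6 held the lowest G1 value, with the other 5 at 9.31 or above, and the difference in G3 against G1 was −0.46 (standard error 0.13, adjusted p = 0.101 from limma) with that pup and −0.55 without it. Ndufaf4 differed by −0.34 in G3 against G1 (adjusted p = 0.139 from limma). Ndufaf3, singled out after its values were seen, had levels of 10.26 to 10.44 in G3, against 10.49 to 10.59 in G2. These groups did not overlap, as in 0.608% of all probes, and the difference was −0.18 (standard error 0.04, adjusted p = 0.220 from limma). Its G1 pups, at 10.31 to 10.64, spanned both.

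Ndufaf6, also singled out after its values were seen, had 2 separate levels. It read 8.63 to 8.92 in 6 pups, namely G1 replicates 1, 3, 4 and 6 and G3 replicates 1 and 3, and 9.53 to 10.33 in the other 12. All 6 G2 pups were in the upper set. The difference in G2 against G1, 0.59 (standard error 0.33, adjusted p = 0.558 from limma), was the largest of the 71 genes in that comparison, and in G3 against G1 it was 0.26 (adjusted p = 0.759 from limma).

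Leaving out G1 replicate 6 changed which genes passed. Without it 16 of the 71 genes (22.5%) passed an adjusted p of 0.05 from limma in G3 against G1, against 6.37% of all probes, and 15 of the 60 bright genes passed, against 16.4% of bright probes. The 16 were Ndufa11, Ndufb7, Ndufs3, Ndufc2, Ndufb6, Ndufv1, Ndufb8, Ndufa8, Ndufv3, Sdha, Uqcrh, Cox4i1, Cox7a2l, Atp5f1b, Atp5mk and Ndufaf2, and none of them reached 2-fold. In that fit Atp5f1b had the smallest adjusted p of the set, 0.00972 from limma, with a difference of −0.36, and Sdha differed by 0.47 (adjusted p = 0.0261 from limma). Leaving out G3 replicate 2 let none pass and moved the differences of Sdha and Atp5f1b to 0.44 and −0.31.

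The spread among pups was smaller in the exposed groups for most of the genes, as it was for most bright probes. The SD among the 6 pups had a median over the 71 genes of 0.16 in G1, 0.11 in G2 and 0.09 in G3. It was smaller in G3 than in G1 for 59 of the 71 genes, and for 52 of the 60 bright genes (86.7%), against 72.4% of all bright probes. Without G1 replicate 6 it was smaller in G3 for 55 of the 71 genes. The largest SD in G3 was that of Cox8b (0.94), which rests on G3 replicate 2.

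Males and females were also compared. With the groups pooled, none of the 71 genes passed an adjusted p of 0.05 from limma between 9 females and 9 males, and 8 passed an unadjusted p of 0.05, against 5.06% of all probes. Ndufs8, an iron-sulfur subunit of complex I singled out after its values were seen, differed by 0.13 in females against males and Sdha by 0.20 (adjusted p = 0.899 from limma for both). The interaction of sex and exposure passed an unadjusted p of 0.05 in 1 gene at 0.2 mg/kg (Ndufaf4), against 4.16% of probes, and in none at 0.002 mg/kg, against 3.92%.

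Of the lists of genes that feed or maintain the chain, none held a gene past an adjusted p of 0.05 from limma in G3 against G1. At an unadjusted p of 0.05 the counts below stand against 8.59% higher and 9.98% lower over all probes, and 16.5% and 18.2% over bright probes. In G3 against G1, 2 of 11 citric acid cycle genes were higher and 1 lower. Ogdh differed by −0.27 and Dld, a subunit shared by the ketoacid dehydrogenases, by 0.72 (adjusted p = 0.101 and 0.103 from limma). Of 12 genes for electron carriers and entry points, 1 was higher and 2 lower. Etfdh, which passes electrons from fatty acid oxidation to ubiquinone, differed by 0.42 and Dhodh by −0.13 (adjusted p = 0.0584 and 0.103 from limma). Of 13 regulators of mitochondrial biogenesis 3 were higher and 3 lower, including Polg, the mitochondrial DNA polymerase, at 0.53 and Polrmt, the mitochondrial RNA polymerase, at −0.32 (adjusted p = 0.0923 and 0.0645 from limma). None of 8 genes for ATP and ADP exchange was higher and 2 were lower, and 2 of 18 other assembly factors were higher and none lower.

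Of 62 mitochondrial ribosomal protein genes 6 were higher and 16 lower in G3 than in G1, with a median difference of −0.05. The 52 bright ones were higher in 7.69% and lower in 28.9%, against 16.5% and 18.2% of bright probes. In G2 against G1 the bright ones were higher in 3.85% and lower in 25%, against 8.64% and 10.6%. For comparison, 13 of 65 cytosolic ribosomal protein genes were higher and 8 lower in G3 than in G1, with a median of 0.04, and the bright ones were higher in 18.5% and lower in 13%. Among 14 genes of mitochondrial beta-oxidation, which supplies the chain with electrons, all of them bright, 5 were higher (35.7%, against 16.5% of bright probes) and none lower, with a median of 0.14. Echs1 differed by 0.54 and Hadhb, which codes for a subunit of the trifunctional protein, by 0.56 (adjusted p = 0.0744 and 0.0915 from limma).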

How the data were processed

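Total RNA of 18 pup livers was measured on 1 array each, and the deposited values are log2 intensities that the authors obtained from lumi, run within FlexArray, for preprocessing and normalization. The release of lumi and the kind of normalization were not given in the sources used here. This table holds 22523 probes, 13793 with 1 gene symbol, and no detection p-values or background, so which dim probes are expressed could not be judged from these. The precision is limited by the 6 pups per group. No 2 arrays were identical, and arrays correlated at 0.974 to 0.995.

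Pairs of groups (12 arrays) were compared by limma 3.58.1 under R 4.3.3, using lmFit and eBayes with neither covariate nor filter, two-sided, with Benjamini-Hochberg adjustment across the 22523 probes. A call meant a 2-fold change with an adjusted p no higher than 0.05, or the adjusted p alone where stated. The procedure was tested on simulated data. Gene names and promoters come from RefSeq (GRCr8). The genes, lists and tests were chosen with earlier results of these data known, so no p-value was computed over the set. Genes named are the catalytic or core subunits, the muscle and testis isoforms and, per complex, those of smallest unadjusted p (up to 3 in G3 against G1, 2 in G2 against G1 and 1 in G3 against G2). Up to 2 assembly factors and 2 genes of each other list were added. Sdhd completes the 4 genes of complex II, and full lists and tissue markers name further genes. Others are marked. Alternatives were a fit of all 3 groups, a variance prior following mean expression, filters on dim probes, quantile normalization, median centring, sex as a covariate, a replicate block, array weights, 1 sex alone, subunits alone, other probe or symbol choices and each pup left out. The deviations of same-numbered pups of different groups correlated at −0.33 to 0.22. These values did not show that the numbers pair pups, and so few pairs cannot exclude it.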

Additional observations from a re-analysis of the deposited data

Results flagged for a closer look

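Within groups of 6 pups, 99 values were examined (27 named genes and Ndufaf6 in 3 groups, and the medians of the 5 complexes). In 13 of them 1 pup was set apart from the other 5 by Dixon's criterion, which chance meets in about 1 in 20 groups. The 99 values share the same pups and many of the genes were chosen by their values. The share over all probes is not given here, so the 13 cannot be read as an excess in this set. In G3, replicate 2 was apart for Cox6a2 (9.47) and Cox8b (10.14), beside its muscle markers.

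G3 replicate 4 was apart for Sdha (11.96), Uqcrc1 (12.02), Atp5f1b (15.16) and Atp5mk (9.15, the low end), and for the medians of complex III (0.15) and complex V (0.10). In G1, replicate 6 was apart for Atp5f1b (14.96, the low end), replicate 1 for Uqcrb (14.25) and replicate 2 for Atp5mg (12.95). In G2, replicate 2 was apart for Ndufv1 (11.49) and replicate 6 for Ndufaf4 (8.64, the low end).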

How the results depend on the processing

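With both the adjusted p and the 2-fold limit, no gene of the set was called in any comparison under any alternative. With the adjusted p alone, G3 against G1 gave 2 genes in the fit of all 3 groups (Sdha and Ndufaf2; 2.82%, against 2.11% of all probes and 5.35% of bright ones) and 2 with the variance prior that follows mean expression (Ndufv3 and Atp5f1b; 2.82%, against 1.10% and 2.18%). It gave Ndufa11, Ndufv3, Sdha and Atp5f1b both without the dimmer probes (4 of 69, 5.80%, against 3.37% and 5.01%) and with array weights (4 of 71, 5.63%, against 2.06% and 5.45%). Among bright probes only it gave 3 of 60 (Sdha, Atp5f1b and Ndufaf2; 5%, against 8.59%), and 16 without G1 replicate 6, and 0 otherwise. The replicate block, whose numbers are not known to pair pups, gave 0 genes past the adjusted p (smallest 0.152 in G3 against G1 from limma). With it 23, 20 and 11 genes passed the unadjusted p in G3 against G1, G2 against G1 and G3 against G2 (32.4%, 28.2% and 15.5%). Without it 24, 14 and 9 passed (33.8%, 19.7% and 12.7%). The shares of all probes were 16.9%, 10.2% and 8.43% with the block and 18.6%, 9.98% and 9.47% without it.

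The count past an unadjusted p of 0.05 fell to 5 in females alone in G3 against G1 (7.04%, against 7.99% of all probes), where males alone gave 20 (28.2%, against 12.3%). In G2 against G1 it was 3 in females alone (4.2%, against 4.35% of all probes). The fit of all 3 groups gave 22 there (31.0%, against 12.3%). In G3 against G2 the count was 3 in the fit of all 3 groups (4.2%, against 8.37% of all probes). It was 3 among bright probes (5%, against 12.5% of bright probes) and 4 in males alone (5.63%, against 5.45%). With each pup left out in turn the counts were 20 to 30 in G3 against G1 (28.2% to 42.25%, against 15.5% to 22.2% of all probes). They were 9 to 25 in G2 against G1 (12.7% to 35.2%, against 7.11% to 14.75%), with 25 without G1 replicate 6 and 9 without G2 replicate 6. In G3 against G2 they were 7 to 13 (9.86% to 18.3%, against 8.0% to 10.0%). The median of the set stayed between −0.05 and −0.02 in G3 against G1 and between −0.04 and −0.01 in G2 against G1 over these, and was −0.053 among bright probes in G2 against G1. In G3 against G2 it lay between −0.01 and 0.04. The cause of these shifts was not tested. The 33 single differences followed were those of named genes at an unadjusted p of at most 0.05 from limma with neither covariate nor filter. None changed sign over 755 values, and 11 passed the adjusted p at least once. Differences chosen this way and refitted on nearly the same arrays seldom change sign, so this is not separate support. Most of the 11 dim genes read near the lower limit of the array, so a change in them may not be detectable. Ndufv3, which is also dim, passed the adjusted p in G3 against G1 in 4 of these alternatives.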
